A study of Astragalus chrysochlorus with 2 samples.

Results

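A set of 5 unigenes named as heat shock genes was followed in callus of Astragalus chrysochlorus, a legume that accumulates selenium. They are 5 of the 82566 unigenes (assembled transcript sequences) of the deposited table. Their identifiers in the table are CL808.Contig1_All for a small heat shock protein of class II, CL9992.Contig2_All for a small heat shock protein of the chloroplast, CL5522.Contig1_All for a ClpB1-like chaperone, CL1180.Contig5_All for a heat shock protein of no stated class and CL3888.Contig2_All for a heat stress transcription factor A-3-like protein. The ending is left out below. The names are the best protein matches in Glycine max or Medicago truncatula that the study lists for unigenes with a large difference between its libraries. The members were therefore chosen on the same contrast that is described here, and the size of their difference is fixed by that choice. Their ratios are given as a description, with no test.

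The study asked which transcripts change when callus is exposed to selenate. RNA was sequenced from 1 library of Se-treated callus and 1 library of Control callus. The Se-treated callus grew for 3 weeks with 5 mg/L sodium selenate in the medium, and the Control callus grew without selenate. Both were long-term cultures, an undifferentiated tissue, on MS medium with 0.5 mg/L of the auxin 2,4-D. Each library held 16.7 M mapped fragments (M, 1000000 fragments). The cultures of a condition filled several dishes, and the methods do not say whether these were pooled. With 1 library per condition there is no measure of the spread between cultures, so every difference below is between these libraries and has no replicate check. The intervals are exact 95% intervals and cover counting error only. They treat each fragment as an independent molecule, which PCR copies are not. The libraries are bulk, so more cells with a transcript and more of it per cell cannot be told apart, and no cell type was checked because callus has no defining marker among the named unigenes.

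Heat shock proteins are molecular chaperones, which keep other proteins from clumping or help them to fold. Small heat shock proteins hold unfolding proteins without using ATP, and proteins of the ClpB family (Hsp100, called HSP101 in the plant cytosol) use ATP to pull proteins out of aggregates, together with Hsp70. Heat stress transcription factors bind the promoters of these genes and switch them on, and in Arabidopsis factor A3 acts downstream of the stress regulator DREB2A. These genes are best known from heat, and other conditions that damage proteins induce them too.

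The level of a unigene is given as FPKM, fragments per kilobase of its length and per M fragments of its library, and the difference as a log2 ratio, with the Se-treated FPKM over that of Control callus. All 5 members had log2 ratios between 2.19 and 2.85. A log2 ratio of at least 2, a 4-fold difference, was found in 4.04% of the 74003 unigenes with at least 10 fragments over both libraries, and nothing is read from the members' count because the choice of members fixed it. The members together took 417.2 fragments per M in the Se-treated library and 79.2 in the Control library. The class II small heat shock protein supplied 63.8% of these fragments in Se-treated and 68.5% in Control callus, so the sum mostly follows that unigene. Without it the other 4 members took 151.1 fragments per M in Se-treated and 24.99 in Control callus, a log2 ratio of 2.60 (2.45 to 2.75).

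**Figure D1:**
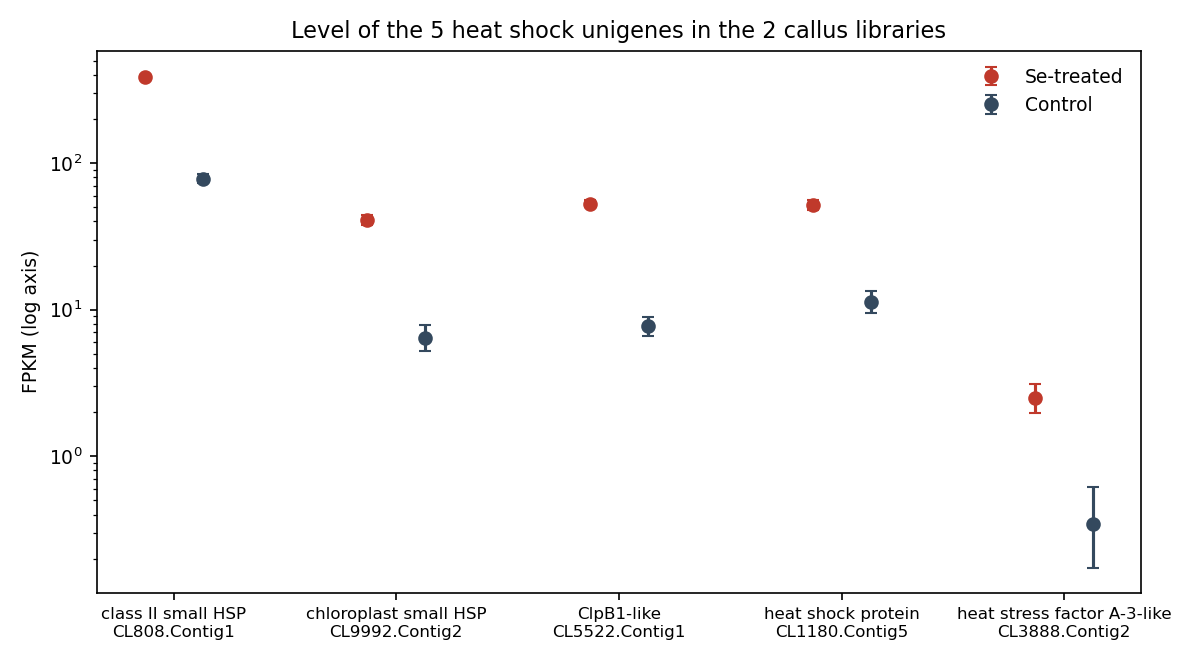
FPKM (log axis) of the 5 members, with Se-treated callus to the left of Control callus for each and 1 library per point. Bars are exact 95% Poisson intervals of the fragment count. The class II small heat shock protein stands at 385.2 FPKM in the Se-treated library and the heat stress factor at 2.48 FPKM, and for each of the 5 the intervals of the libraries do not overlap.

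The small heat shock protein of class II (CL808.Contig1, 691 nt), a cytosolic chaperone, was by far the most abundant member. It had 4445 fragments in Se-treated and 907 in Control callus, which is 385.2 FPKM (373.9 to 396.7) in Se-treated and 78.5 FPKM (73.4 to 83.7) in Control. It was 4.91-fold higher in the Se-treated library (4.57 to 5.28), a log2 ratio of 2.30 (2.19 to 2.40). It ranked 236th of all unigenes by FPKM in Se-treated callus and 1900th in Control callus. It is the only contig of its cluster (a group of similar assembled sequences, numbered by CL) in the table, so no other contig of that cluster shares its reads. A further unigene with the same match name from Medicago, CL7753.Contig2, lies in a separate cluster and is described with the other chaperones.

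The chloroplast member of the small heat shock proteins (CL9992.Contig2, 906 nt), which guards proteins inside the plastid, had 621 fragments in Se-treated and 97 in Control callus. Its level was 41.0 FPKM (37.9 to 44.4) in Se-treated and 6.40 FPKM (5.19 to 7.81) in Control, a log2 ratio of 2.68 (2.37 to 3.005). The cluster has a second contig, CL9992.Contig1, with only 5 fragments in Se-treated and 10 in Control callus. That contig had a log2 ratio of -0.998, but its interval (-2.90 to 0.69) includes no difference. The named contig held 99.2% of the cluster's fragments in Se-treated and 90.7% in Control callus, and the summed cluster had a log2 ratio of 2.55 (2.25 to 2.86).

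The ClpB1-like unigene (CL5522.Contig1, 1402 nt), the disaggregating chaperone, had 1235 fragments in Se-treated and 181 in Control callus. This is 52.7 FPKM (49.8 to 55.8) in Se-treated and 7.72 FPKM (6.63 to 8.93) in Control, 6.83-fold higher in Se-treated (5.84 to 8.03). Its log2 ratio of 2.77 (2.55 to 3.01) had an interval that lay above that of the class II small heat shock protein. In rank by FPKM it stood 2822nd in Se-treated and 16059th in Control callus. Like CL808, its cluster has no other contig in the table.

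The heat shock protein of no stated class (CL1180.Contig5, 682 nt) had 588 fragments in Se-treated and 129 in Control callus. Its level was 51.6 FPKM (47.5 to 56.0) in Se-treated and 11.3 FPKM (9.44 to 13.4) in Control, a log2 ratio of 2.19 (1.91 to 2.48), the lowest among the 5. This contig is a minor part of its cluster, whose 6 contigs together had 13598 fragments in Se-treated and 16544 in Control callus. The summed cluster was lower in Se-treated callus, with a log2 ratio of -0.28 (-0.31 to -0.25).

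The contigs of CL1180 differed in opposite directions. The long contigs Contig1 (2568 nt) and Contig2 (2622 nt) carried most of the fragments. Contig1 had 8850 fragments in Se-treated and 11574 in Control callus, a log2 ratio of -0.38 (-0.42 to -0.34), and Contig2 had 3805 in Se-treated and 4625 in Control callus, a log2 ratio of -0.28 (-0.34 to -0.22). Contig3 (1133 nt), with 264 fragments in Se-treated and 76 in Control callus, had a log2 ratio of 1.80 (1.43 to 2.19) and was the only other contig of the cluster that was higher in Se-treated callus. Contig4 and Contig6, both short and with at most 90 fragments in a library, had log2 ratios of -0.58 (-1.08 to -0.10) and -0.69 (-1.38 to -0.01). The share of the cluster's fragments on Contig5 was 4.32% (Clopper-Pearson interval 3.99 to 4.68) in Se-treated and 0.780% (0.651 to 0.926) in Control callus, and the share on Contig3 was 1.94% (1.72 to 2.19) in Se-treated and 0.459% (0.362 to 0.575) in Control callus. The study lists no name for the other contigs of this cluster. The mapping kept 1 position for each read, so a read that fits several contigs was placed on only 1 of them, and how this divided the fragments was not tested.

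The heat stress factor A-3-like unigene (CL3888.Contig2, 1904 nt), a transcription factor and the only regulator among the 5, was the least abundant. It had 79 fragments in Se-treated and 11 in Control callus, which is 2.48 FPKM (1.97 to 3.10) in Se-treated and 0.345 FPKM (0.172 to 0.618) in Control. Its log2 ratio of 2.85 was the highest of the members and also the least precise (1.93 to 3.91), because it rests on 11 Control fragments. In Se-treated callus 51.8% of unigenes had a lower FPKM, and in Control callus 14.3%.

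The 3 contigs of the CL3888 cluster had similar fragment counts in Se-treated callus but not in Control callus. Per unit length, the Se-treated levels were 2.48 FPKM for Contig2, 2.02 FPKM for Contig1 and 1.83 FPKM for Contig3. Contig1 (2342 nt) had 79 fragments in Se-treated and 52 in Control callus, a log2 ratio of 0.61 (0.08 to 1.14). Contig3 (2655 nt) had 81 fragments in Se-treated and 50 in Control callus, a log2 ratio of 0.70 (0.17 to 1.24). The intervals of both lie below that of Contig2. Contig2 held 33.1% of the cluster's fragments (27.1 to 39.4) in Se-treated and 9.73% (4.96 to 16.8) in Control callus. Summed over its contigs, the cluster had 239 fragments in Se-treated and 113 in Control callus, a log2 ratio of 1.08 (0.75 to 1.42), and without Contig2 it had 0.65 (0.29 to 1.02). With 1 FPKM added to both libraries the ratio of Contig2 itself was 1.37.

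**Figure D2:**
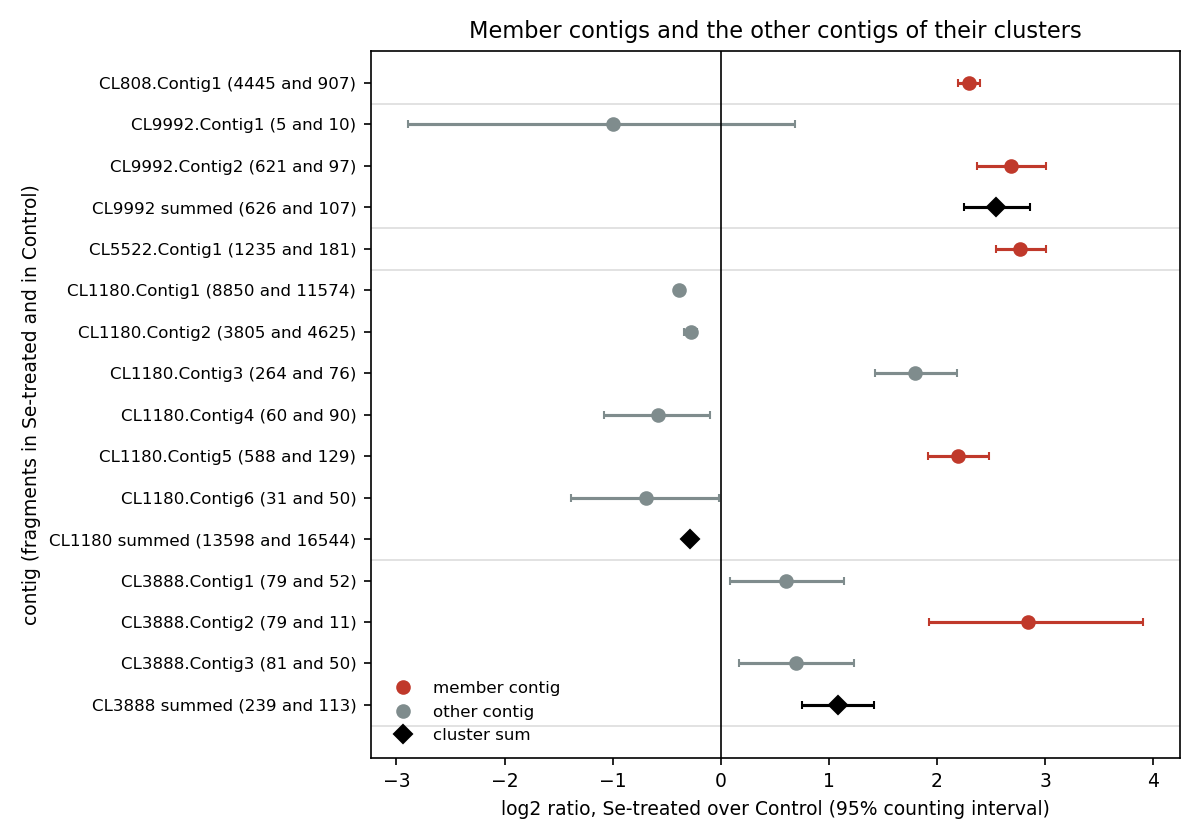
Ratio (log2) of Se-treated over Control for each member contig (red), every other contig of its cluster (grey) and the summed cluster (black diamond), with exact 95% counting intervals and the fragments in Se-treated and Control beside each name. CL1180.Contig5 and CL1180.Contig3 lie near 2 while the summed cluster lies at -0.28, and CL3888.Contig2 lies at 2.85 while its summed cluster lies at 1.08.

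The order of the members by level differed in part between the libraries. In Se-treated callus the order by FPKM was CL808, ClpB1, CL1180.Contig5, CL9992 and the heat stress factor, and the counting intervals of ClpB1 and CL1180.Contig5 overlapped. In Control callus CL1180.Contig5 stood above ClpB1 with intervals that did not overlap, and those of ClpB1 and CL9992 overlapped. Per unit length, the class II small heat shock protein was 7.30 times as abundant as ClpB1 in Se-treated and 10.2 times in Control callus. ClpB1 was 21.2 times as abundant as the heat stress factor in Se-treated and 22.3 times in Control callus. By log2 ratio, the interval of ClpB1 lay above those of CL808 and CL1180.Contig5, and the intervals of every other pair overlapped.

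The 8 other contigs of the member clusters were not picked for how they differed, although they can share reads with the members. Their median log2 ratio was -0.33, and 3 of the 8 had a ratio above 0. Most of the 8 belong to CL1180, so these values mainly describe that cluster. Only CL1180.Contig3 had a log2 ratio of at least 1, a 2-fold difference, and no contig had one of -1 or less. Among all 30163 contigs in clusters of 2 or more with at least 10 fragments, 13.1% had a log2 ratio of at least 1 and 13.6% one of -1 or less, with a median of -0.10. With 1 of 8 contigs the share lies close to that background.

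The study's list gives 30 unigenes a name of a heat shock protein, a heat stress factor, a chaperone or a folding enzyme, the 5 members included. Names were searched among listed unigenes of both directions, for heat shock, heat stress, chaperone, dnaJ, Clp, trigger factor or peptidyl-prolyl isomerase. Folding proteins under other names were not searched for. Listing needed a 4-fold difference either way, which fixed the size of the 30 ratios but not their sign. The search terms were chosen with earlier results of these data known, so the sign was open to that choice. All 30 were higher in Se-treated callus, and of all 972 unigenes on the list 663 (68.2%) were. The list was drawn up on these same libraries, and CL1720 and CL3398 hold 6 and 3 of the 30, so the count is not independent evidence of a direction. Their median was 2.56, or 2.50 with the 3 unigenes that had no Control fragment set to a floor of 3 fragments, beside -0.09 over all 74003 unigenes. The listed unigenes just inside this threshold were a class IV small heat shock protein (CL5870.Contig3, 2.05) and the chloroplast disaggregase ClpB3 (CL1275.Contig2, 2.06), and the contigs of these clusters just outside it were CL1180.Contig3 (1.80) and CL1720.Contig1 (1.79). The 30 unigenes lie in 23 clusters or single unigenes, of which 15 have further contigs. The summed ratio of those 15 ranged from -0.28 to 3.36 with a median of 1.49, beside 0.00 over the 9255 summed clusters of 2 or more contigs. Of the 15, 11 were at least 2-fold higher in Se-treated callus, beside 9.64% of those 9255 clusters, but each of the 15 contains a contig chosen for its ratio and the 9255 were not chosen so. Without the named contigs, 6 of the 15 (CL1275, CL1720, CL5870, CL6115, CL6370 and CL7753) were at least 2-fold higher, and the median over the 14 clusters with a ratio left was 0.63. Of the 5 that passed only with it, CL5051 had 1.27 with and 0.18 without its named contig, CL1031 had 1.38 with and 0.59 without, and CL3888 had 1.08 with and 0.65 without. The other 2 of the 5 were CL9992, at -0.998 without its named contig, and CL5553, whose remaining contig had 0 fragments in Se-treated and 3 in Control callus. This comparison was chosen after the values were seen. In 14 of 15 the sum had a smaller ratio than any named contig of the cluster. CL1180 was the only cluster with a summed ratio below 0.

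Small heat shock proteins made up 6 clusters or single unigenes, with log2 ratios between 1.49 and 3.97. In the single unigenes (CL808, Unigene4497 and Unigene41318) this is the value on which they were chosen. The named contig of CL7753 carries the same class II match name as CL808. The CL7753 cluster had 308 fragments in Se-treated and 30 in Control callus over 3 contigs, a log2 ratio of 3.36 (2.82 to 3.95). Here the summed cluster exceeded its named contig, and most fragments lay on the unnamed CL7753.Contig1 with 267 in Se-treated and 25 in Control callus. Of the class I small heat shock proteins, cytosolic chaperones like class II, Unigene4497 had 103 fragments in Se-treated and 13 in Control callus, a log2 ratio of 2.99 (2.15 to 3.95). The other, Unigene41318, had 47 fragments in Se-treated and only 3 in Control callus. It carries a high unigene number, and of the 6464 unigenes numbered from 39000 upwards 92.7% had a log2 ratio above 0, whatever their name. That share was 11.1% for numbers from 30000 to below 37000, and 46.2% for numbers below 30000. The part of this numbering in the ratio of Unigene41318 was not tested. The class IV protein had the smallest summed ratio, 1.49 (1.02 to 1.98).

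Proteins of the Clp family were named on 6 contigs. The ClpB1-like member has no further contig, so its ratio cannot be set beside a summed one. A ClpB unigene matched to Medicago (CL6370.Contig2) had 208 fragments in Se-treated and 32 in Control callus, a log2 ratio of 2.70, and its summed cluster had 1.68 (1.47 to 1.91). Chloroplast ClpB3 had 2.06 on the named contig and 1.53 (1.30 to 1.77) over the cluster. ClpC, a chloroplast Hsp100 that feeds proteins to a protease and is not a disaggregase of the ClpB type, was named on 3 contigs with log2 ratios of 2.14 to 3.78. Its cluster of 15 contigs had 1348 fragments in Se-treated and 771 in Control callus, a log2 ratio of only 0.81 (0.68 to 0.94).

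The clusters of Hsp90, Hsp105 and DnaJ proteins had summed log2 ratios of 0.63 to 1.57. Heat shock protein 83-like (CL5051.Contig1), of the Hsp90 class that matures signalling proteins, had 516 fragments in Se-treated and 105 in Control callus, a log2 ratio of 2.30, and 1.27 (1.08 to 1.46) over its cluster. Hsp105-like (CL4440.Contig1), of a class related to Hsp70, rested on a short contig with 43 fragments in Se-treated and 10 in Control callus. Its cluster had 2142 fragments in Se-treated and 1384 in Control callus, a log2 ratio of 0.63 (0.53 to 0.73). The 3 DnaJ proteins, partners of Hsp70, had log2 ratios of 2.102 to 2.44 on the named contigs and 0.99 to 1.57 over their clusters. Trigger factor-like (CL5553.Contig1), a chaperone that in bacteria meets new chains at the ribosome, had 236 fragments in Se-treated and 42 in Control callus, and 2.39 (1.93 to 2.89) over its cluster. The peptidyl-prolyl isomerases, which speed up a slow folding step, are 6 of the 8 contigs of the cluster CL1720. Of these, 3 had 14 to 17 fragments in Se-treated and none in Control callus. With the Control library set to a floor of 3 fragments, these 3 were 4.67-fold to 5.68-fold higher in Se-treated callus. The lower ends of their counting intervals were log2 ratios of 1.73 for CL1720.Contig5 and 2.05 for CL1720.Contig4 and CL1720.Contig7. The summed CL1720 cluster had 530 fragments in Se-treated and 157 in Control callus, a log2 ratio of 1.76 (1.498 to 2.02).

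A mitochondrial BCS1 chaperone, which in yeast helps to assemble the respiratory chain, was named on Unigene8315 and Unigene39809. Unigene8315 had 172 fragments in Se-treated and 26 in Control callus, a log2 ratio of 2.73 (2.13 to 3.38). Unigene39809, in the high number range, had 56 fragments in Se-treated and 13 in Control callus. Heat shock proteins of no stated class were also named on Unigene20293, with 430 fragments in Se-treated and 91 in Control callus (2.24, 1.91 to 2.59), and on Unigene43023, again in the high range, with 24 in Se-treated and 1 in Control callus.

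**Figure D3:**
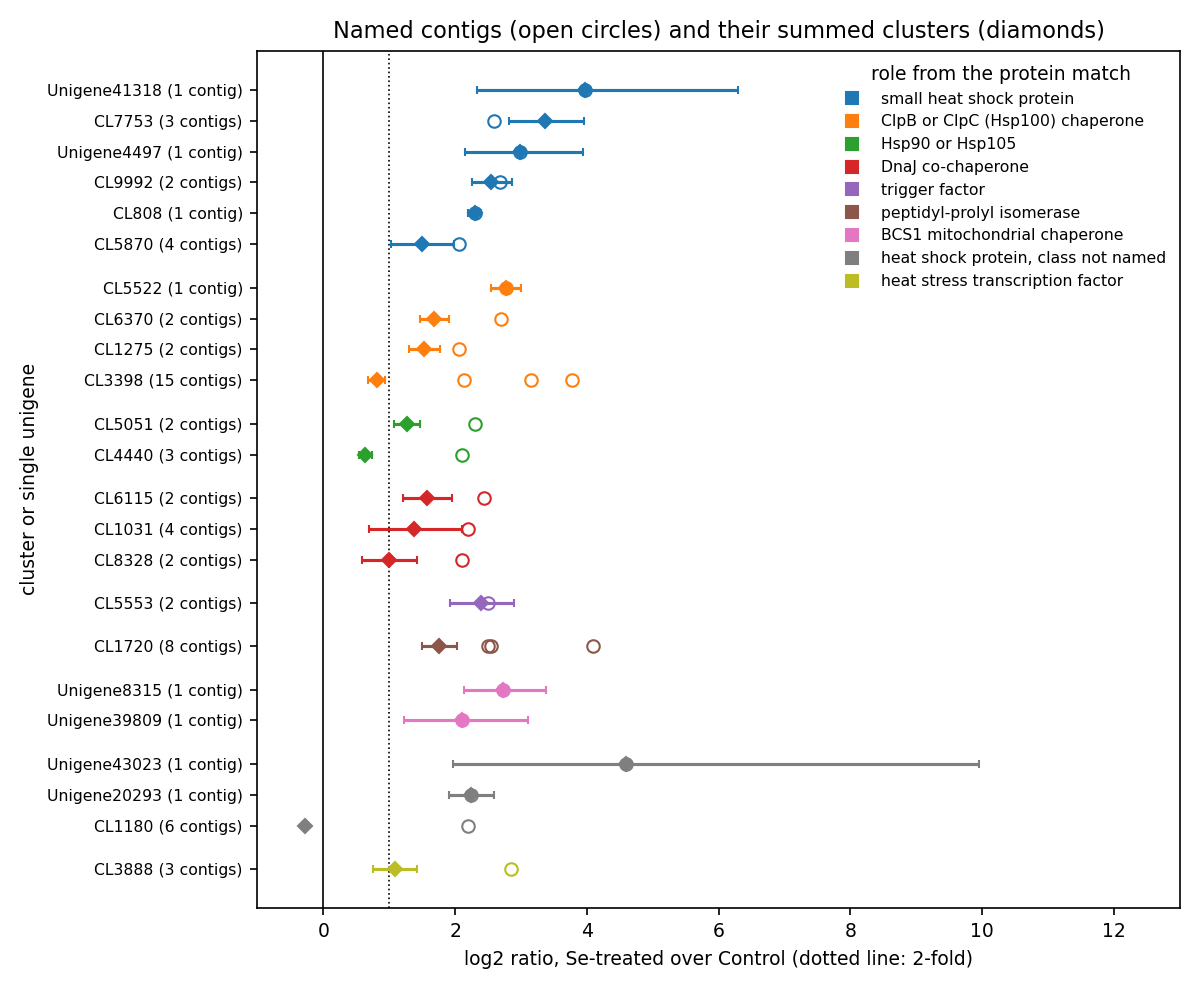
Ratio (log2) of Se-treated over Control for the named contigs (open circles) and for the summed cluster of each (diamonds, exact 95% counting interval), coloured by role. Named contigs with no Control fragment are not drawn. The diamonds of the small heat shock proteins lie between 1.49 and 3.97, those of ClpC, the Hsp105-like protein and DnaJ CL8328 lie below the 2-fold line, and CL1180 alone lies below 0.

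The other contigs of these 15 clusters were compared with their like. Of the 29 that have no name in the list and at least 10 fragments, 12 (41.4%) had a log2 ratio of at least 1 and none had one of -1 or less, with a median of 0.70. In the clusters of the remaining named unigenes with higher levels in Se-treated callus, 178 of 645 such contigs (27.6%) had at least 1 and 28 (4.34%) had -1 or less, with a median of 0.42. Both shares lie above the 13.1% of all clustered contigs. The contigs can share reads with the chosen ones and with each other, the difference between 41.4% and 27.6% was not tested, and it holds only for these libraries. The filter of 10 fragments adds both libraries, so a contig can pass it through 1 library alone. Among the 12, CL7753.Contig3 had 11 fragments in Se-treated and 0 in Control callus. CL5870.Contig4 had 45 in Se-treated and 3 in Control callus, a log2 ratio of 3.91 (2.27 to 6.24). It held 45 of the 85 Se-treated fragments of CL5870 without its named contig. CL5870.Contig2, also among the 12, had 9 in Se-treated and 4 in Control callus, with an interval of -0.67 to 3.32.

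The members were set beside all unigenes by level as well. Among unigenes with at least 50 fragments over both libraries, which takes in all 5 members, 1.92% had a log2 ratio of at least 2. A counting interval with its lower bound beyond a 2-fold difference was found in 5.21% of those 39148 unigenes, and in all 23 of the named heat shock and chaperone unigenes that reach 50 fragments, which again were chosen on this contrast. The other 7 of the 30 have fewer fragments and are not in this comparison.

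**Figure D4:**
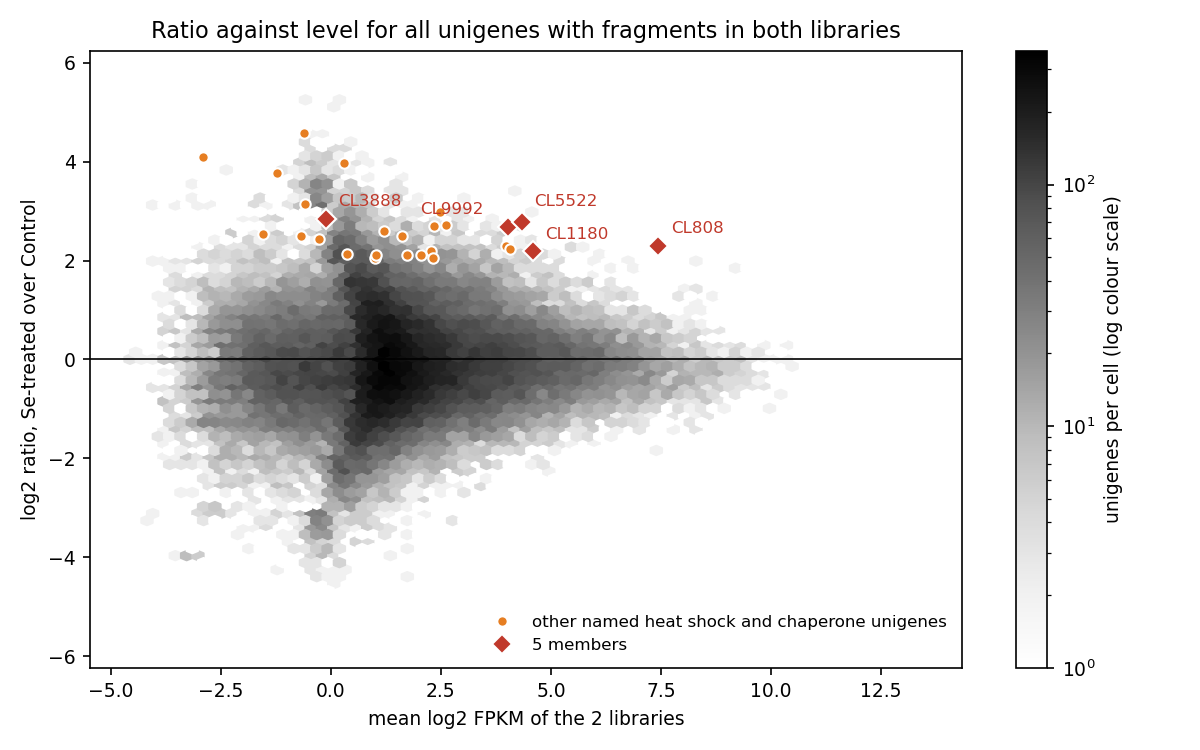
Ratio (log2, Se-treated over Control) against the mean log2 FPKM of both libraries, for all unigenes with at least 10 fragments in all and some in each library (grey, log colour scale), the other named heat shock and chaperone unigenes (orange) and the 5 members (red diamonds). The members lie at log2 ratios of 2.19 to 2.85, with CL808 far to the right and the heat stress factor to the left of the other members.

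For each member the named unigene outside the chaperone list with the most similar pair of levels was sought, by the distance in log2 FPKM over both libraries among 896 candidates. All candidates were on the study's list, so each differed at least 4-fold in 1 direction or the other. Unigenes outside the list were not searched, so a likeness in ratio was partly fixed by the choice of candidates. Such a likeness over 2 libraries is only a match of level and ratio. For CL808 it was a phosphoglycerate mutase (Unigene1879), an enzyme of glycolysis, at 359.6 FPKM in Se-treated and 77.6 FPKM in Control callus (distance 0.10). For ClpB1 it was a cytosolic pyruvate kinase (CL3714.Contig3), also of glycolysis, at 53.5 FPKM in Se-treated and 8.08 FPKM in Control callus (0.07). The nearest to CL9992.Contig2 was an oxoglutarate dehydrogenase-like protein (Unigene22717, 0.16), to CL1180.Contig5 a coatomer subunit of vesicle coats (CL1904.Contig13, 0.07) and to the heat stress factor a UBR4-like ubiquitin ligase (CL2545.Contig2, 0.08).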

How the data were processed

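Low-quality reads were removed by the authors, the remainder was assembled with Trinity, TGICL and Phrap, and reads were mapped to the unigenes with SOAP with 1 position kept per read. The authors deposited 1 table with raw fragment counts per unigene, its length, FPKM, and a direction, P-value and FDR of their comparison, which were not used. The deposited FPKM of 1 or more is stored as 10000 times its value, so FPKM was computed again from the fragments, and all 82566 stored values of each library matched it on that reading. A FPKM of 0 was set to 0.001 in ratios. Exact intervals of ratios were checked on simulated Poisson counts without PCR copies, which meet the assumption of the interval by construction. That check covers the computation only, and it left out the sparsest unigenes. The Poisson intervals of levels and the Clopper-Pearson intervals of shares were not checked so. No test was made, since there is 1 library per condition. The members and lists were chosen with earlier results of these data known. Named were the members, the other contigs of their clusters, the listed chaperones and the nearest named unigene of each member. CL7753.Contig1, CL7753.Contig3, CL5870.Contig2, CL5870.Contig4 and CL1720.Contig1 were added after their values were seen. Alternatives were a pseudocount of 0.1 or 1 FPKM, count filters, summed clusters, and the scalings of edgeR 4.0.16 (TMM) and DESeq2 1.42.0. Python 3.11.15 with scipy 1.17.1 was used. No replicate numbers link the libraries.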

Additional observations from a re-analysis of the deposited data

How the results depend on the processing

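Of 92 alternative values, 76 stayed within the counting interval or, for counts, within 1.5 times. The TMM, median of ratios, recentred and reduced-total scalings moved every ratio by 0.08, 0.08, 0.03 and -0.01, and the member contigs lay between 2.18 and 2.93 under them. Summing the cluster gave -0.28 for CL1180.Contig5, which changed its direction, and 1.08 for CL3888.Contig2, whose ratio was 1.37 with 1 FPKM added. The CL1180 cluster, whose interval is narrow, had -0.20 with TMM, -0.20 with the median of ratios, -0.25 recentred, -0.14 with summed FPKM and -0.33 without its member. Without their members CL3888 had 0.65 and CL9992 -0.998. Of the 30 named unigenes, 10 had a log2 ratio of at least 2 with 1 FPKM added and 11 by the summed cluster. These 11 include the 8 with no further contig, for which the sum is the chosen value itself. Of the 15 clusters with further contigs, 3 had a summed log2 ratio of at least 2. In an alternative chosen after seeing the data, 6 in place of 11 clusters of the list were at least 2-fold higher once their named contigs were left out. With 1 FPKM added, 8.33% of all unigenes had a log2 ratio of at least 1 and 0.565% of at least 2, and with at least 50 fragments 1.92% had at least 2. Adding 1 FPKM shrinks the ratios of sparse unigenes by construction. For the other changes the cause was not tested. No paired analysis was possible because each condition has 1 library. A count of 11 Control fragments limits the heat stress factor, and culture-to-culture spread is unknown for every value.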
